A study of Mus musculus with 18 samples.

Results

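Keratins Krt7, Krt8, Krt18 and Krt19, claudins Cldn4, Cldn6 and Cldn7 and the transcription factors Elf3 and Grhl2 were followed by bulk RNA-seq in mouse embryonic stem cells (ESCs), trophoblast stem cells (TSCs) and extra-embryonic endoderm (XEN) cells. They are 9 of 14804 genes found in at least 1 of the 3 expression tables, matched by symbol. Of these 9 genes, the ESC and TSC tables list 9 each and the XEN table lists 8, without Krt7. The genes were chosen as a set after their TPM values in these tables were known, so their levels and fold changes are given as a description and not as a test of the choice.

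ESCs were wild-type E14 cells grown without feeders on gelatin in medium with serum and leukemia inhibitory factor. TSCs were grown on a layer of feeder fibroblasts with FGF4 and heparin, and XEN cells were grown on gelatin in medium partly conditioned on mouse embryonic fibroblasts. The atmosphere held 20% oxygen in normoxia and 2% oxygen in hypoxia, and hypoxia lasted 2 days or 7 days. Each of the 9 combinations of cell type and condition had 2 biological replicates, 18 libraries altogether. Values are TPM, a transcript level scaled to the gene length and to the library. The authors deposited 1 table per cell type, each scaled on its own, and no test was made between tables.

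Keratins form the intermediate filaments of epithelial cells. A type II keratin such as Krt7 or Krt8 pairs with a type I keratin such as Krt18 or Krt19, and the Krt8 and Krt18 pair is the first to appear in the mouse embryo, where it marks trophectoderm and its derivatives as well as simple epithelia later on. Claudins are membrane proteins of tight junctions, where they seal the space between neighbouring epithelial cells and set which ions pass. Elf3 is an ETS-family factor of epithelial cells, and Grhl2 is a Grainyhead-family factor known to activate junction genes, claudins among them.

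The 9 genes lie on 5 chromosomes of the GRCm38 build, and all of them are annotated as protein-coding. Krt7 (chr15:101411043-101430313, plus strand), Krt8 (chr15:101996698-102004482, minus strand) and Krt18 (chr15:102028180-102032027, plus strand) share chromosome 15 with Grhl2 (chr15:37233036-37363569, plus strand). Krt8 and Krt18 point away from each other with 23697 bases between them. Krt19 (chr11:100140810-100148665, minus strand) and Cldn7 (chr11:69964779-69967885, plus strand) are on chromosome 11. Cldn4 lies at chr5:134945119-134946934 on the minus strand, Cldn6 at chr17:23679249-23682446 on the plus strand and Elf3 at chr1:135253575-135258568 on the minus strand. An antisense gene, Gm26642, covers the whole of Elf3 (4994 bases), and Gm671 overlaps 1269 bases of Krt7. Whether the authors' counting used the strand is not given in the sources used here, so reads from these overlaps cannot be told apart. The annotation also names 1 pseudogene of a member, Krt8-ps, which could share reads with Krt8.

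The stretches before the start sites of Krt8, Krt18 and Elf3 are shown because Krt8 and Krt18 were the members most alike across libraries and Elf3 was called in 2 cell types. They are read 5′ to 3′ on the strand of the gene, from RefSeq windows on GRCm38.p6, and end at the first annotated base of the gene. The Krt8 stretch is chr15:102004483-102004592, the Krt18 stretch chr15:102027966-102028179 and the Elf3 stretch chr1:135258569-135258722. Capitals mark ACGTG or GCGTG on either strand (the core bound by hypoxia-inducible factors) and CGGAA on either strand (a core bound by ETS factors).
Krt8: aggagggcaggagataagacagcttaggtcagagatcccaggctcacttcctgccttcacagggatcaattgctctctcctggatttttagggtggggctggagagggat
Krt18: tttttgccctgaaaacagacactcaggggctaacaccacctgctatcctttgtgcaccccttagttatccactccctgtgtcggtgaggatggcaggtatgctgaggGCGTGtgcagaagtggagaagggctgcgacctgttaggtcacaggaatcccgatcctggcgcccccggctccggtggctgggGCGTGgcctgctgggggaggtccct
Elf3: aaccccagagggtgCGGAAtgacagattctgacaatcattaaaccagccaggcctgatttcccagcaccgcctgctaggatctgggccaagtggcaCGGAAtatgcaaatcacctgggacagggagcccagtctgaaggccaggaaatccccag

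In the 250 bases before the RefSeq start, the ACGTG or GCGTG core matched 2 times for Krt18 and 0 times for Krt8, Krt7 and Elf3. It matched 1 time each for Cldn4 and Cldn6 and 1 time in each of the windows of Cldn7. The same letters are in 38.6% of 32851 promoter windows of this length. CGGAA matched 2 times for Elf3, 1 time for Cldn6 and 2 times and 1 time in the windows of Cldn7, and is in 25.2% of all windows. AACCGG on either strand, a core bound by Grainyhead factors, matched 1 time for Elf3, inside the gene body and so outside the printed stretch, and 1 time in the second window of Cldn7, and is in 5.62% of windows. The table of windows held 7 of the 9 genes, without Krt19 and Grhl2. The window of Krt7 and the second window of Cldn7 lie wholly inside the annotated gene body. Those of Krt8, Krt18, Elf3 and Cldn6 lie partly inside it. A match is a run of letters and not a measured site.

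The libraries held between 35592641 and 75204029 reads, recovered from the TPM as whole multiples of a step in each library. The 6 pluripotency markers summed to between 13441 and 15982 TPM in ESC libraries, the 7 trophoblast stem cell markers to between 663 and 1211 TPM in TSC libraries, and the 6 primitive endoderm markers to between 1955 and 2698 TPM in XEN libraries. Some libraries of a group stood apart. The 10 markers of feeder fibroblasts, all listed in the TSC table, summed to 1883 TPM in normoxic TSC replicate 1 and 968 TPM in day 2 TSC replicate 2, against 209 to 445 TPM in the other TSC libraries. In ESC libraries, 5 of the 10 were listed and summed to between 24.3 and 41.5 TPM, and in XEN libraries 2 were listed and summed to between 0.191 and 0.65 TPM. In bulk RNA, fewer cells of a type and less RNA per cell cannot be told apart.

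The members differed in level by orders of magnitude between cell types. To compare genes with each other, TPM was recomputed with the summed exon length of each gene, since the deposited values divide by the whole gene span, introns included. Krt18, the type I partner of Krt8, ran from 7670 to 17214 exon-length TPM in TSCs, from 661 to 1448 in XEN cells and from 30.1 to 177 in ESCs, so the 3 ranges did not overlap. Krt18 was among the 4 most abundant genes of each TSC library by deposited TPM. Krt8 had the same order, with 3622 to 10360 in TSCs, 967 to 1704 in XEN cells and 24.8 to 174 in ESCs. Krt19, a type I keratin of simple epithelia, ran from 414 to 2289 in TSCs and from 116 to 777 in XEN cells, ranges that overlapped, and from 11.6 to 116 in ESCs. Krt7 ran from 397 to 1178 in TSCs and from 0.499 to 3.14 in ESCs.

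Claudins did not share that order. Cldn4 was highest in TSCs, with 1285 to 2538 exon-length TPM, lower in ESCs, with 132 to 176, and lowest in XEN cells, with 0.256 to 5.85, where between 8 and 112 reads fell on the gene. Cldn7 had the same order, with 46.9 to 161 in TSCs, 11.3 to 24.1 in ESCs and 2.30 to 9.75 in XEN cells. Cldn6 ran from 325 to 898 in TSCs and from 201 to 695 in XEN cells, which overlapped, and from 72.1 to 145 in ESCs. XEN cells thus held Cldn6 with little Cldn4 and Cldn7. The Cldn4 to Cldn6 ratio ran from 0.00127 to 0.00843 in XEN libraries, from 1.13 to 2.29 in ESC libraries and from 1.58 to 6.70 in TSC libraries.

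Among the factors, Elf3 had like levels in the 3 cell types. Its exon-length TPM ran from 35.9 to 79.7 in ESCs, from 43.0 to 131 in TSCs and from 49.0 to 81.0 in XEN cells, and the 3 ranges overlapped. Grhl2 ran from 34.2 to 42.5 in ESCs and from 21.1 to 41.6 in TSCs, which overlapped, but from 0.185 to 0.924 in XEN cells, where between 28 and 125 reads fell on the gene. These levels come from tables scaled separately and were not tested between cell types.

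**Figure D1:**
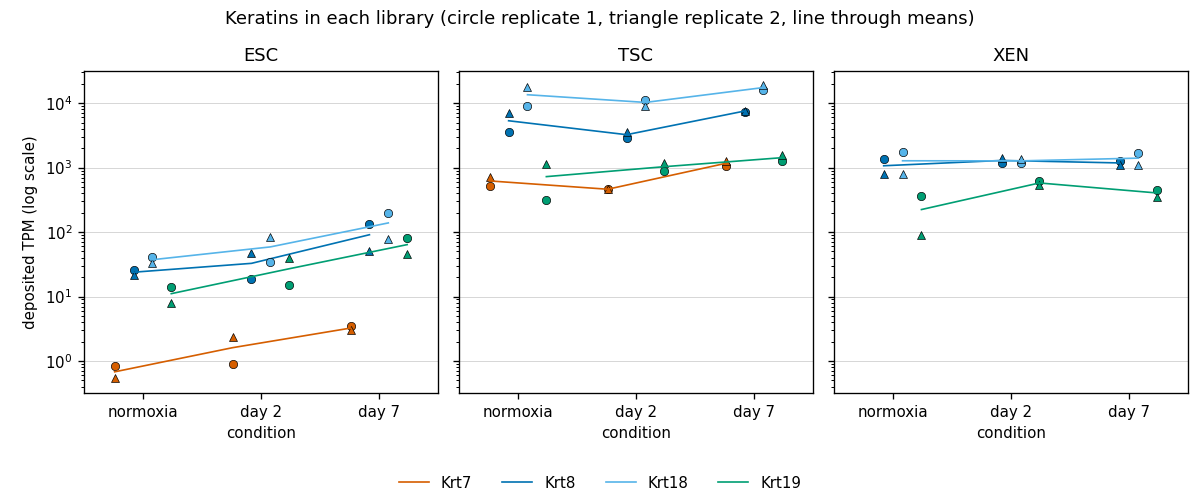
Deposited TPM of the 4 keratins (y axis, log scale) in each library of ESCs, TSCs and XEN cells by condition (x axis), with circles for replicate 1, triangles for replicate 2 and a line through the group means. In ESCs all 4 keratins are highest in day 7 replicate 1, and in TSCs Krt18 lies between 9113 and 19005. Krt7 is not listed in XEN cells.

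The ratio of Krt8 to Krt18 in the same library does not depend on the library's scaling, but its size depends on the gene lengths used, here exon lengths. In ESCs the normoxic libraries had 0.935 and 0.970, those of day 2 had 0.795 and 0.838 and those of day 7 had 0.978 and 0.962, close to equal on this scale. In TSCs the normoxic libraries had 0.578 and 0.590, those of day 2 had 0.378 and 0.582 and those of day 7 had 0.688 and 0.602, with Krt18 above Krt8 in every library. In XEN cells the normoxic libraries had 1.14 and 1.46, those of day 2 had 1.49 and 1.52 and those of day 7 had 1.10 and 1.48, with Krt8 above Krt18 in every library on this scale. The 3 ranges of the ratio did not overlap. In the deposited TPM, which divide by gene span, the ratio ran from 0.535 to 0.659 in ESCs, from 0.254 to 0.463 in TSCs and from 0.741 to 1.03 in XEN cells. The order of the cell types is the same with either length, but Krt8 is above Krt18 in XEN cells in exon-length TPM and not in 4 of the 6 libraries in deposited TPM. Over the 6 libraries of a cell type the largest ratio was 1.23 times the smallest in ESCs, 1.82 times in TSCs and 1.38 times in XEN cells. In ESCs, both day 2 ratios were below the other 4.

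**Figure D2:**
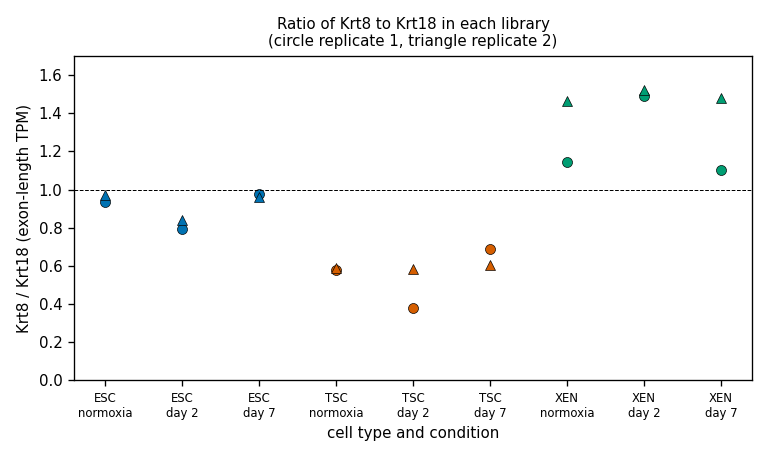
Ratio of Krt8 to Krt18 in exon-length TPM (y axis) for each of the 18 libraries by cell type and condition (x axis), with circles for replicate 1, triangles for replicate 2 and a dashed line at equal levels. TSC libraries lie between 0.378 and 0.688, ESC libraries between 0.795 and 0.978 and XEN libraries between 1.10 and 1.52, and the position of each cell type against the dashed line depends on the use of exon lengths.

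Genes were called differentially expressed (DE) when the Benjamini-Hochberg adjusted p of limma, over all genes tested in a cell type, was at or under 0.1 and the fold change was over 1.5. Of the 9 genes, 9 were tested in ESCs and in TSCs, and 7 in XEN cells, where Grhl2 was below the filter of 0.4 TPM in at least 2 libraries. Fold changes are differences of log2(TPM + 0.5), which understates the change of low genes such as Krt7 in ESCs. The authors tested with edgeR at the same thresholds. They reported more DE genes against normoxia on both days in every cell type than limma called here. Shares of DE genes below are those of limma on TPM.

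In ESCs on day 7 of hypoxia, 3 of the 9 genes were DE against normoxia, Krt7, Krt19 and Elf3, and all were higher. With median-ratio scaling the call was Elf3 alone, and without the filter on low values, without the mean-variance trend or with a replicate block the number was 0. Of all 12271 genes tested, 0.758% were DE in that comparison, and 0.717% were DE as higher. Since the genes were chosen on these values, nothing is read from the difference between those shares. The median log2 fold change of the 9 genes was 0.90, and that of all genes was 0.02.

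Krt19 stood at 14.1 and 8.05 TPM in normoxia, 14.9 and 39.0 TPM on day 2 and 82.1 and 45.7 TPM on day 7. Both day 7 libraries were above the other 4, and the day 2 libraries were 2.61-fold apart. The mean was 63.9 ± 25.8 TPM on day 7 and 11.1 ± 4.29 TPM in normoxia (SD, n = 2), a difference of 2.47 ± 0.45 (SE) on the log2 scale with a limma adjusted p of 0.0803.

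Krt7 stood at 0.822 and 0.536 TPM in normoxia, 0.890 and 2.33 TPM on day 2 and 3.46 and 3.02 TPM on day 7. It was the lowest of the member keratins in ESCs in every library, and between 46 and 317 reads fell on it. The day 7 libraries differed by 1.14-fold and both were above the other 4. The log2 difference from normoxia was 1.67 ± 0.32 (SE), with a limma adjusted p of 0.0892, and the day 7 mean was 4.77 times the normoxic mean.

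Krt8 stood at 26.1 and 21.6 TPM in normoxia, 18.4 and 47.0 TPM on day 2 and 131 and 50.5 TPM on day 7. Krt18 stood at 41.5 and 33.0 TPM in normoxia, 34.4 and 83.3 TPM on day 2 and 199.5 and 78.0 TPM on day 7. The partners moved together in each library: both were highest in day 7 replicate 1, close to each other in day 7 replicate 2 and day 2 replicate 2, and near the normoxic level in day 2 replicate 1. Day 7 replicates were 2.60-fold apart for Krt8 and 2.56-fold for Krt18, and 0.196% and 0.22% of genes were as far apart in that group. The day 7 mean was 3.82 times the normoxic mean for Krt8 and 3.72 times for Krt18, and neither passed the threshold over all genes (limma adjusted p of 0.281 and 0.269). Both were called when the day 2 libraries were left out of the fit. In that fit 320 of all 12271 genes were called in place of 93, and the number of members called rose from 3 to 5. Without normoxic replicate 1, normoxic replicate 2 or day 7 replicate 1 the number was 0, and without day 7 replicate 2 it was 1 (Elf3).

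Elf3 stood at 52.4 and 46.8 TPM in normoxia, 90.7 and 92.4 TPM on day 2 and 107 and 80.9 TPM on day 7. All 4 hypoxic libraries were above both normoxic libraries, and day 2 and day 7 overlapped. Its log2 difference from normoxia was 0.88 ± 0.16 (SE) on day 2, with a limma adjusted p of 0.297, and 0.90 ± 0.16 (SE) on day 7, with a limma adjusted p of 0.0699. Elf3 thus held its day 2 level at day 7, with a log2 difference between the days of 0.02 ± 0.16 (SE). For the keratins the day 7 mean was between 2.01 and 2.78 times the day 2 mean, and none of these differences passed the threshold. Grhl2 stood at 7.39 and 8.21 TPM in normoxia, 6.97 and 7.19 TPM on day 2 and 6.88 and 6.72 TPM on day 7, a narrow range that did not pass the test in any comparison.

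Among the claudins in ESCs, Cldn4 ran from 390.1 to 529 TPM and its hypoxic libraries overlapped the normoxic ones. Cldn6 stood at 117 and 124 TPM in normoxia, 128 and 223 TPM on day 2 and 235 and 155 TPM on day 7. Cldn7 stood at 24.2 and 20.7 TPM in normoxia, 21.2 and 36.9 TPM on day 2 and 45.5 and 28.8 TPM on day 7. For Cldn6 and Cldn7 the day 7 libraries were above the normoxic ones, and neither was DE (log2 differences of 0.67 ± 0.27 and 0.68 ± 0.28, SE). Day 7 replicate 1 and day 2 replicate 2 held the highest values of Cldn6 and Cldn7, and day 7 replicate 2, with Krt8 and Krt18 near those of day 2 replicate 2, held less of both claudins.

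**Figure D3:**
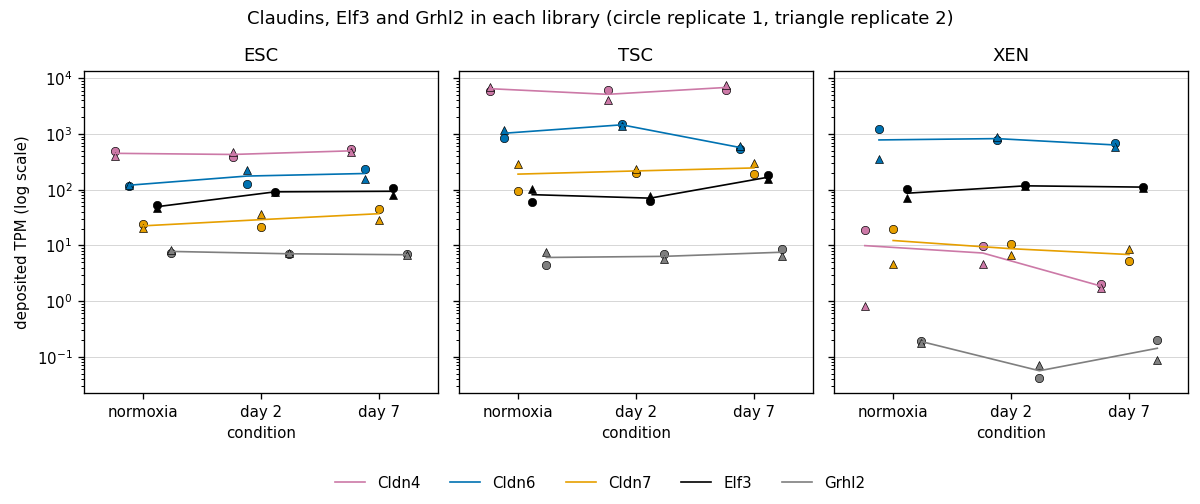
Deposited TPM of the 3 claudins, Elf3 and Grhl2 (y axis, log scale) in each library of ESCs, TSCs and XEN cells by condition (x axis), with circles for replicate 1, triangles for replicate 2 and a line through the group means. Elf3 in ESCs lies at 46.8 to 52.4 in normoxia and at 80.9 to 107 in hypoxia, and Cldn4 in normoxic XEN cells spans 0.83 to 19.0.

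Counted over the set, 7 of the 9 genes had both day 7 ESC libraries above both normoxic libraries and 1 (Grhl2) had both below, where 23% and 17.5% of all genes did. On day 2, 4 had both libraries above (16.4% of all genes) and 1 below (14.4%). No member was DE on day 2 by limma (0 of 9, with 3 at an unadjusted p under 0.05 and 0 by voom on recovered reads), where 0% of all genes were DE (0 of 12271, with 620 at an unadjusted p under 0.05 and 0 by voom). Without day 2 replicate 1 the number was 4 (Krt7, Krt19, Cldn6 and Elf3). No member was DE between day 7 and day 2 by limma either (0 of 9, with 4 at an unadjusted p under 0.05 and 0 by voom), where 0.179% of all genes were. With each library left out in turn, that log2 difference ran from 0.40 to 1.43 for Krt7, 0.77 to 2.14 for Krt8 and 0.64 to 2.00 for Krt19. Between the days, 3 members (Krt7, Krt8 and Krt19) had both day 7 libraries above both day 2 libraries (15.2% of all genes) and 1 (Grhl2) had both below (8.8%). Markers of other cell types differed between the same groups. The trophoblast stem cell markers, of which 6 of 7 were listed and Elf5 was not, summed to 91.2 and 92.2 TPM in normoxia, 108 and 117 TPM on day 2 and 130.03 and 146 TPM on day 7. Tfap2c made up most of each sum, with 77.4 and 77.0 TPM in normoxia and 106 and 121 TPM on day 7. Both day 7 libraries were also above normoxia for Cdx2, Eomes and Fgfr2, and overlapped it for Gata3 and Tead4. Hand1, of the differentiated trophoblast list, stood at 2.16 and 2.07 TPM in normoxia, 3.57 and 5.64 TPM on day 2 and 12.7 and 8.32 TPM on day 7. Of that list 4 of 10 genes were listed. The sums were 25.5 and 22.7 TPM in normoxia, 34.2 and 48.9 TPM on day 2 and 42.6 and 36.1 TPM on day 7. Ascl2 made up most of each sum, with 20.2 and 16.8 TPM in normoxia, 25.8 and 37.5 TPM on day 2 and 27.1 and 21.7 TPM on day 7. Gcm1 stood at 0.994 and 1.26 TPM in normoxia and 0.491 and 0.974 TPM on day 7. Of the feeder fibroblast list 5 of 10 were listed, with Thy1 at 22.05 to 32.5 TPM making up most of the sum. Its collagen gene Col1a1 stood at 1.58 and 1.53 TPM in normoxia, 1.63 and 2.55 TPM on day 2 and 15.1 and 6.05 TPM on day 7, and Col1a2 and Col3a1 were also highest in day 7 replicate 1. The node and endoderm list, mostly Trh, summed to 2462 TPM in day 2 replicate 2 and 2157 TPM in day 7 replicate 1 against 1002 to 1633 TPM in the other libraries. None of its other listed genes was highest in those libraries. Foxa2 and Gsc were lowest in day 2 replicate 2, at 0.756 and 0.182 TPM. Chrd stood at 5.31 and 6.20 TPM in normoxia and 4.49 and 3.57 TPM on day 7. The part of all these markers in the result was not tested.

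In TSCs, 4 of the 9 genes were DE between day 7 and day 2 of hypoxia: Krt7, Krt8 and Elf3 were higher and Cldn6 was lower on day 7. Of all 12481 genes tested, 16.2% were DE in this comparison, 2.37% as higher and 13.8% as lower, and the median of all genes was -0.24 on the log2 scale. With median-ratio scaling, which moves that median to 0.02, 738 genes were called higher and 968 lower, in place of 296 and 1723, and the 4 members kept their calls and directions. No member was DE on day 2 (0 of 9, with 1 at an unadjusted p under 0.05 and 0 by voom) or on day 7 (0 of 9, with 3 and 0) against normoxia, where 0.2% and 0.385% of all genes were. On day 2, Cldn6 had both libraries above both normoxic libraries (30.6% of all genes) and Krt7 had both below (16.9%). On day 7, Krt7, Krt8, Krt19 and Elf3 had both above (8.98%) and Cldn6 both below (32.3%), with the median of all genes at -0.18 on the log2 scale. Between day 7 and day 2, the 4 keratins and Elf3 had both above (14.3%) and Cldn6 both below (44.9%).

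Krt7 stood at 516 and 728 TPM in normoxia, 462 and 463 TPM on day 2 and 1057 and 1273 TPM on day 7. Day 7 was above all other libraries and day 2 below all others. The log2 difference between day 7 and day 2 was 1.33 ± 0.22 (SE), with a limma adjusted p of 0.0258. Krt8 stood at 3549 and 7131 TPM in normoxia, 2896 and 3596 TPM on day 2 and 7399 and 7702 TPM on day 7, so that normoxic replicate 2 was near the day 7 level and replicate 1 near the day 2 level. Its log2 difference between day 7 and day 2 was 1.23 ± 0.34 (SE), with a limma adjusted p of 0.0754.

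Krt18 stood at 9113 and 17954 TPM in normoxia, 11386 and 9171 TPM on day 2 and 15970 and 19005 TPM on day 7. It had the order of Krt8 and a smaller difference between day 7 and day 2, 0.77 ± 0.36 (SE) on the log2 scale, which did not pass the threshold (limma adjusted p of 0.215). Krt19 stood at 311 and 1139.5 TPM in normoxia, 877 and 1192 TPM on day 2 and 1259.7 and 1598 TPM on day 7. Its lowest library was normoxic replicate 1, which was 3.66-fold below replicate 2. The 4 member keratins together took 0.589% and 1.23% of reads in the normoxic libraries, 0.656% and 0.666% in those of day 2 and 1.23% and 1.64% in those of day 7.

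Elf3 stood at 60.7 and 102 TPM in normoxia, 63.8 and 77.3 TPM on day 2 and 181 and 154 TPM on day 7, with both day 7 libraries above the other 4. Its log2 difference between day 7 and day 2 was 1.24 ± 0.27 (SE), with a limma adjusted p of 0.0428. In ESCs Elf3 was above normoxia from day 2 on, and in TSCs it was above normoxia in both libraries only on day 7. That difference in time course was not tested, since each cell type was fitted on its own. Grhl2 ran from 4.42 to 8.53 TPM with all groups overlapping.

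Cldn6 stood at 864 and 1198 TPM in normoxia, 1538 and 1385 TPM on day 2 and 544 and 603 TPM on day 7, so that the 3 conditions did not overlap and day 7 was lowest. The log2 difference between day 7 and day 2 was -1.35 ± 0.22 (SE), with a limma adjusted p of 0.0225, and it was -1.06 with median-ratio scaling. Cldn4 ran from 4056 to 7504 TPM, with the groups overlapping. Cldn7 stood at 93.6 and 287 TPM in normoxia, 198 and 237 TPM on day 2 and 193 and 298 TPM on day 7, again with normoxic replicate 1 lowest.

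Normoxic TSC replicate 1, the library with most feeder RNA, held the lowest TSC value of 5 of the 9 genes, Krt18, Krt19, Cldn7, Elf3 and Grhl2. The share of all genes with their lowest value there was not counted, so the 5 are given as a description. The feeder markers summed to 1883 TPM there and to 268 TPM in normoxic replicate 2. Of the 10 feeder markers all were at or above 1 TPM there, with Col1a1 at 856 TPM. Without normoxic replicate 2, which left that library alone in its group and assumed to vary like the others, Krt19 was called on day 2 and Krt19 and Elf3 on day 7. On day 2 the feeder markers summed to 209 TPM in replicate 1 and 968 TPM in replicate 2, and the same 5 genes differed in both directions. Replicate 2 held more Krt19 (1192 against 877 TPM), Cldn7 (237 against 198 TPM) and Elf3 (77.3 against 63.8 TPM). It held less Krt18 (9171 against 11386 TPM) and Grhl2 (5.80 against 6.93 TPM). The part of feeder RNA in these values was not tested. Without normoxic replicate 1 or 2, the comparison of day 7 with day 2 gave the same 4 calls. Without day 2 replicate 2, the other library rich in feeder markers, 3 of the 4 were made (Krt7, Elf3 and Cldn6). Without day 2 replicate 1, day 7 replicate 1 or day 7 replicate 2 the number of members called was 0.

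**Figure D4:**
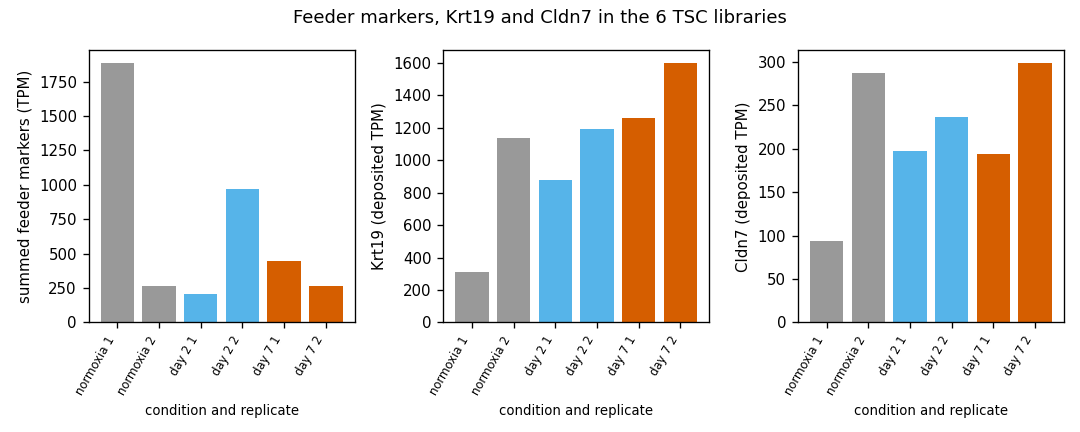
Summed TPM of the 10 feeder fibroblast markers (left), deposited TPM of Krt19 (middle) and of Cldn7 (right) on linear y axes for the 6 TSC libraries by condition and replicate (x axis). The feeder bar is tallest in normoxic replicate 1, at 1883, where Krt19, at 311, and Cldn7, at 93.6, are lowest. Day 2 replicate 2, with the next tallest feeder bar, is above day 2 replicate 1 for both genes.

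Some markers of the TSC state differed between the same groups as the keratins. The 7 trophoblast stem cell markers summed to between 953 and 1211 TPM in normoxia and on day 2 and to 752 and 663 TPM on day 7. Eomes among them stood at 439 and 364 TPM in normoxia, 271 and 469 TPM on day 2 and 142 and 104 TPM on day 7. Tfap2c, of the same markers, was not lower on day 7 and made up most of the day 7 sums. It stood at 396 and 484 TPM in normoxia, 383 and 404 TPM on day 2 and 488 and 463 TPM on day 7. Of the 10 genes of the differentiated trophoblast list, 6 were listed, and Hand1 made up nearly all of the sum, with 8648 and 14196 TPM in normoxia, 8568 and 7234 TPM on day 2 and 14763 and 12872 TPM on day 7. Prl3b1, Tpbpa, Synb and Ctsq were not listed in the TSC table. Like Krt8, Hand1 had its lowest mean on day 2 and its highest on day 7. Prl3d1 of that list had the same order at low levels. It stood at 0.388 and 1.17 TPM in normoxia, 0.496 and 0.83 TPM on day 2 and 3.22 and 6.53 TPM on day 7. Ascl2 and Gcm1 of the same list had the opposite order, with Ascl2 at 4.35 and 7.38 TPM in normoxia, 16.4 and 10.8 TPM on day 2 and 5.91 and 5.46 TPM on day 7, and Gcm1 at 1.81 and 0.772 TPM on day 2 and 0.263 and 0.0706 TPM on day 7. Their part in the result was not tested.

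In XEN cells 0 of the 7 genes tested were DE in each of the 3 comparisons by limma, with 1 at an unadjusted p under 0.05 on day 2 against normoxia and 0 in the other 2, and 0 by voom in all 3. The share of all 10894 genes was 0% on day 2 (0 genes, with 846 at an unadjusted p under 0.05 and 0 by voom), 0.11% on day 7 and 0.0367% between the days. The normoxic libraries were far apart for several members but not over all genes. The median absolute log2 difference between replicates over all genes was 0.193 in normoxia, 0.222 on day 2 and 0.230 on day 7. Cldn4 stood at 19.0 TPM in normoxic replicate 1 and 0.83 TPM in replicate 2, which was 22.9-fold, with 112 and 8 reads. On day 2 it stood at 9.89 and 4.72 TPM and on day 7 at 2.05 and 1.69 TPM.

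Krt19 stood at 358 and 89.2 TPM in normoxia, 614 and 543 TPM on day 2 and 452 and 357 TPM on day 7, with a log2 difference of 1.69 ± 0.57 (SE) on day 2 that did not pass the threshold (limma adjusted p of 0.560). Cldn6 stood at 1213 and 352 TPM in normoxia and between 591 and 872 TPM in hypoxia. Cldn7 stood at 19.8 and 4.67 TPM in normoxia and between 5.21 and 10.6 TPM in hypoxia. For Cldn6 and Cldn7 the normoxic libraries lay on either side of all 4 hypoxic libraries, and so did those of Krt18, at 1755 and 801 TPM against 1100.2 to 1709.9 TPM.

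Krt8, the most even of the XEN keratins, stood at 1350.0 and 789 TPM in normoxia and between 1098 and 1396 TPM in hypoxia. The replicates of normoxia were 4.02-fold apart for Krt19, 3.45-fold for Cldn6, 4.25-fold for Cldn7, 2.19-fold for Krt18 and 1.71-fold for Krt8. Among all genes tested, 0.771% were as far apart in this group as Krt19, 0.0643% as Cldn4 and 8.31% as Krt8. Replicate 2 was lower for 8 of the 8 genes listed. The share of all genes lower there was not counted, and the median shift over all genes tested was 1.01-fold. Replicate 2 held 72029024 reads and replicate 1 held 43683121, and TPM is scaled to the library. Elf3 was the steadiest, with 102 and 70.6 TPM in normoxia, 120.3 and 114 TPM on day 2 and 114 and 109 TPM on day 7. Both hypoxic groups lay above normoxia for Elf3 and neither was DE (log2 differences of 0.46 ± 0.20 and 0.39 ± 0.20, SE). Grhl2 stood at 0.196 and 0.180 TPM in normoxia and at 0.0409 to 0.197 TPM in hypoxia. The primitive endoderm markers summed to 2473 and 2208 TPM in the normoxic libraries, but single markers differed in both directions, with Foxq1 at 592 and 235 TPM, Sox7 at 182 and 407 TPM and Dab2 at 57.2 and 119 TPM. Their part in the result was not tested.

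Leaving out normoxic replicate 1 gave calls for Cldn4 and Krt19 on day 2 and for Krt19 on day 7, and leaving out normoxic replicate 2 gave a call for Cldn4 on day 7. Each of these fits has a normoxic group of 1 library, which is assumed to vary like the other groups. On day 2, Krt19 and Elf3 had both libraries above both normoxic libraries (19.6% of all genes tested) and 0 of the 7 genes had both below (21.4%). On day 7, Elf3 had both above (17.5%) and 0 had both below (23.9%). Between the days, 0 had both day 7 libraries above both day 2 libraries (21.7%) and 4 had both below (25.9%), Krt19, Cldn4, Cldn6 and Elf3.

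**Figure D5:**
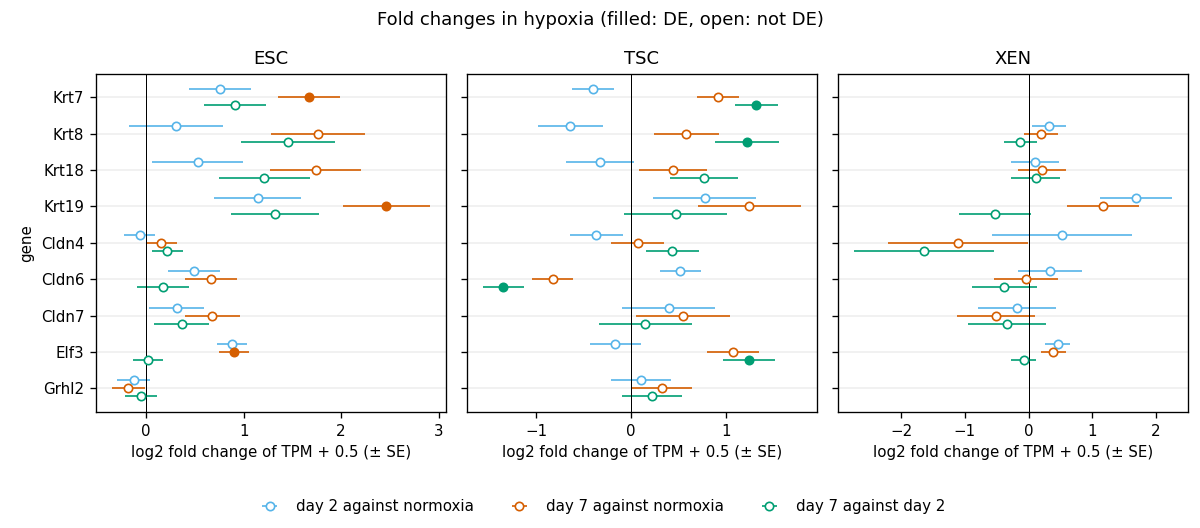
Log2 fold change of TPM + 0.5 with its SE (x axis) of the genes (y axis) in the 3 comparisons for ESCs, TSCs and XEN cells, each panel with its own x scale, filled where a gene was DE and open where it was not. Filled points are Krt7, Krt19 and Elf3 on day 7 against normoxia in ESCs, and Krt7, Krt8, Elf3 and Cldn6 on day 7 against day 2 in TSCs, and XEN cells have none.

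Related genes were taken from lists of other keratins, other claudins, other epithelium-specific ETS and Grainyhead factors, tight junction and polarity genes, desmosome genes and keratin linkers, an epithelial programme and other intermediate filaments, 80 genes in all. In ESCs on day 7, 2 of 66 tested rose against normoxia and 0 fell, where 0.758% of all genes were DE, 0.717% as higher. The number was 0 with median-ratio scaling, without the filter on low values, without the mean-variance trend, with a replicate block and without any 1 of the normoxic or day 7 libraries. Krt42, a type I keratin, rose from 53.1 and 49.5 TPM to 95.6 and 96.8 TPM (limma adjusted p of 0.0790). Cldn9, a close relative of Cldn6, rose from 3.08 and 4.36 TPM to 11.2 and 8.45 TPM (limma adjusted p of 0.0892). The median log2 fold change of the 66 genes was 0.17. Tight junction and polarity genes had 0 calls of 15, and desmosome genes and keratin linkers 0 of 13. The epithelial programme also had 0 of 19. At an unadjusted p under 0.05 these lists had 0, 3 and 5 genes, and voom called 0 in each. The factors Grhl1 and Grhl3 were tested in ESCs and neither was called in any comparison, with Grhl3 at 9.88 and 8.98 TPM in normoxia and 10.1 and 10.7 TPM on day 7.

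Vimentin, the filament of mesenchymal cells, was not called in ESCs, and of the other intermediate filaments Nes had the largest day 7 difference, with 45.3 and 51.2 TPM in normoxia and 89.5 and 78.1 TPM on day 7 (limma adjusted p of 0.309). On day 2 against normoxia, and between day 7 and day 2, 0 of the 66 genes were DE in ESCs by limma and by voom, with 1 and 10 at an unadjusted p under 0.05.

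In TSCs, 17 of 71 related genes were DE between day 7 and day 2, of which 5 rose and 12 fell, in a comparison where 16.2% of all genes were DE, 2.37% as higher and 13.8% as lower. The share that fell was thus near that of all genes. The median of the 71 was -0.16 and that of all genes -0.24. With median-ratio scaling 13 of the 71 were DE. Without day 2 replicate 1 the number was 1, without day 7 replicate 1 it was 3 and without day 7 replicate 2 it was 0. The keratins that rose were stress keratins of stratified epithelia: Krt16 rose from 5.27 and 11.9 TPM to 30.3 and 45.7 TPM and Krt17 from 0.156 and 0.837 TPM to 2.30 and 4.92 TPM. Sfn, a 14-3-3 protein of epithelial cells, rose from 2307 and 3499 TPM to 9274 and 9395 TPM. Of the desmosome genes and keratin linkers 2 rose and 2 fell, with the plakophilin Pkp3 from 96.0 and 87.2 TPM to 235 and 194 TPM and the plakophilin Pkp4 from 8.22 and 7.59 TPM to 3.42 and 2.42 TPM. The spectraplakin Dst, which ties keratin to hemidesmosomes, rose by 0.91 ± 0.24 (SE) on the log2 scale, and the integrin Itga6 fell by 0.79 ± 0.23 (SE).

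Among the genes that fell were claudins. Cldn9 went from 26.3 and 17.8 TPM to 4.99 and 3.69 TPM, and Cldn3 from 1203 and 1067 TPM to 327 and 579 TPM. By voom 1 of the 5 other claudins was called. Cldn6 was lower in the same comparison, and Cldn4 and Cldn7 were not (log2 differences of 0.44 and 0.15). Tjp3, a scaffold of tight junctions, fell from 72.9 and 35.7 TPM to 14.01 and 16.2 TPM (limma adjusted p of 0.0857). By voom 0 of the 15 tight junction and polarity genes were called. E-cadherin (Cdh1) fell from 196 and 203 TPM to 94.2 and 98.4 TPM, Epcam from 318 and 331 TPM to 139.9 and 178 TPM, and the factor Klf5 from 304 and 191 TPM to 139 and 102 TPM. The factors related to Elf3 and Grhl2 had 2 calls of 3, both lower. Elf5, an ETS factor of trophoblast stem cells, fell from 82.5 and 85.1 TPM to 18.8 and 14.7 TPM, and Grhl3 from 21.8 and 15.2 TPM to 4.36 and 2.61 TPM. The nuclear lamins Lmnb1 and Lmnb2 fell by 1.12 ± 0.20 and 0.72 ± 0.22 (SE) on the log2 scale, and voom called 1 gene of their list. On day 7 against normoxia the call in these lists was Elf5 (1 of 71), which fell from 60.4 and 56.6 TPM, and on day 2 against normoxia 0 of 71 were called by limma and by voom, with 12 at an unadjusted p under 0.05.

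In XEN cells 0 of 53 related genes were DE in any comparison by limma and by voom, with 9 on day 2, 4 on day 7 and 6 between the days at an unadjusted p under 0.05. The normoxic libraries were also far apart for some related genes. Krt14 stood at 20.6 TPM in normoxic replicate 1 and 0.601 TPM in replicate 2, and Krt6a at 22.9 and 0.214 TPM. The junction protein F11r stood at 158 and 63.1 TPM. Ovol1, an epithelial zinc finger factor, had the largest positive difference in the epithelial programme on day 2, with 0.589 and 0.475 TPM in normoxia and 2.17 and 2.23 TPM on day 2 (limma adjusted p of 0.320).

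Likeness in pattern was measured as Pearson's r of log2(TPM + 0.5), centred on the mean of each cell type, over the 18 libraries of the tables in which a gene was tested, or the 12 libraries of ESCs and TSCs for Krt7 and Grhl2. The points share libraries and depth, and r is given as a description. Krt8 and Krt18 were each the closest of 10081 genes to the other, with r of 0.952. Krt18 and Krt19 had r of 0.814, Krt8 and Krt19 0.786, and Elf3 and Krt19 0.740. Krt7 had r of 0.901 with Krt8 and 0.826 with Elf3. Cldn6 and Elf3 had r of -0.06.

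Among genes outside the set, those most like Krt8 were Dsp (desmoplakin, which anchors keratin filaments to desmosomes) with r of 0.893, Csrp1 with 0.829 and Zfp703 with 0.825. Those most like Krt18 were Sorbs3 (0.863), Dsp (0.857) and Gsn (0.857), and those most like Krt19 were Sorbs3 (0.848), Anxa2 (0.839) and Sgce (0.807). Krt7 was most like Cstb (0.935), Hand1 (0.913) and Tfap2c (0.889). The claudins had other neighbours: Cldn4 was most like F11r (0.908), AA986860 (0.902) and Cmip (0.881), Cldn6 like Pim2 (0.893), Syngr3 (0.892) and Cdh1 (0.862), and Cldn7 like Prss8 (0.852), Scarb1 (0.781) and Dsg2 (0.775). Elf3 was most like Trim41 (0.869), Csrp1 (0.852) and Hspb8 (0.843), and Grhl2 like Pak6 (0.879), Cc2d1b (0.868) and Mbnl3 (0.865).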

How the data were processed

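The 18 samples are bulk RNA-seq libraries. Per the paper's methods and the submitters' processing notes, the authors trimmed reads with cutadapt 2.4, aligned them to mm10 with STAR 2.7.5a, used StringTie 2.0.6, counted with featureCounts, filtered with edgeR 3.26.8 (0.4 CPM, 2 of 6 libraries) to protein-coding genes, and deposited TPM in a table per cell type. Columns labelled day 0 were taken as normoxia, and 0 columns were left unmapped. The deposited TPM divide by gene span (end minus start), and between 98.7% and 98.9% of values per library lay within 0.05 of a whole read. These reads gave depth, exon-length TPM and the voom alternative.

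Genes that passed 0.4 TPM in 2 or more of 6 libraries were fitted on log2(TPM + 0.5) with limma 3.58.1 in R 4.3.3 (mean-variance trend, 6 libraries per cell type). They were adjusted by Benjamini-Hochberg over all genes and called at 0.1 and 1.5-fold. These are the study's thresholds, which it applied with edgeR and not with limma on TPM. The code of the fit was run on simulated reads with changes of known size, which does not measure its error rate on these libraries. Python 3.11.15, numpy 2.4.6, pandas 2.3.3 and matplotlib 3.10.9 were used. Annotation was GENCODE on GRCm38, a later release than the authors used, and promoter windows came from RefSeq. The members and lists were chosen with earlier results of these data known. All 9 members were named, and of each related list at most 3 DE genes per direction and comparison, or the largest change where none was DE, and for likeness the 3 genes with the highest r per member. Genes named beyond that (Grhl1, Vim, Krt14 and Krt6a in normoxic XEN cells, F11r and the marker genes) were chosen after their values were seen. Alternatives were other pseudocounts (0.1 and 1), filters (none, 1 TPM), median-ratio scaling, a replicate block, no trend, a stricter threshold (0.05 and 2-fold), fits to 4 libraries, each library left out, voom and exon-length TPM.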

Additional observations from a re-analysis of the deposited data

Results flagged for a closer look

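Some members lay above one condition in both libraries of a cell type and below it in both libraries of another. These differences between cell types were not tested, since each cell type was fitted on its own. On day 2 against normoxia, Krt7 had a log2 fold change of 0.76 in ESCs and -0.41 in TSCs. On day 7 against normoxia, Cldn6 had 0.67 in ESCs and -0.83 in TSCs. Between day 7 and day 2, Krt19 had 1.32 in ESCs and 0.47 in TSCs, against -0.52 in XEN cells, and Elf3 had 1.24 in TSCs and -0.08 in XEN cells. Of these values, the Elf3 difference in TSCs passed the threshold over all genes.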

How the results depend on the processing

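The count of members DE on day 7 against normoxia in ESCs was 3. It was 0 without the filter on low values, without the mean-variance trend and at the stricter threshold. It was 1 with median-ratio scaling (Elf3) and 5 in the fit to the 4 libraries compared, which called 320 of all genes in place of 93. In the same comparison the count of related genes was 2, and it was 0 without the filter, with median-ratio scaling, without the trend and at the stricter threshold, 1 with voom and with exon-length TPM, and 6 in the fit to 4 libraries. For related genes in TSCs, day 7 against normoxia gave 1 and exon-length TPM gave 2, and day 7 against day 2 gave 17 and the stricter threshold 9. In XEN cells day 7 against day 2 gave 0 related genes and the fit to 4 libraries 1. The causes were not tested.

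With replicate number as a block, the number of members DE on day 7 in ESCs went from 3 to 0 and that of related genes from 2 to 0, and in TSCs on day 7 that of related genes went from 1 to 0. The numbers are not stated to pair libraries, and deviations of same-numbered libraries correlated between -0.46 and 0.27.

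Leaving out each library in turn gave ranges for the members of 0 to 4, 0 to 5 and 0 to 3 in ESCs (day 2, day 7 and between the days), 0 to 1, 0 to 2 and 0 to 4 in TSCs, and 0 to 2 and 0 to 1 in XEN cells on day 2 and day 7. For related genes the ranges were 0 to 5, 0 to 6 and 0 to 3 in ESCs, 0 to 1, 0 to 8 and 0 to 20 in TSCs and 0 to 2, 0 to 3 and 0 to 1 in XEN cells. In ESCs on day 7 the members called were 0 without either normoxic library or day 7 replicate 1, and Elf3 without day 7 replicate 2. With 2 libraries per group, 1 library decides most calls. Each of these fits leaves a group with 1 library, assumed to vary like the others, and the number of all genes called changed in them too.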
